A study of Homo sapiens with 6 samples.

Results

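The regions described here are the open chromatin regions of chromosomes 4, 13 and 18 in a human leukaemia line, chosen by chromosome alone. Overlapping entries (at least 1 bp) of 6 ATAC-seq peak lists were merged into 32037 union regions on chromosomes 1 to 22 and X, and the 3001 on these chromosomes were kept. Chromosome 4 held 1602 of them, chromosome 13 held 766 and chromosome 18 held 633. All positions are hg19, counted from 1.

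ATAC-seq cuts open DNA with a transposase, so that a peak marks a stretch where many cuts fall. The cells were CCRF-CEM, an established T lymphoblast leukaemia line that expresses SLFN11, and an SLFN11-knockout line made from it. Each genotype was given DMSO, the solvent, or 100 nM camptothecin for 2 h or 4 h, with 1 library for each of the 6 combinations of genotype and treatment. The study asks how accessibility responds to camptothecin with and without SLFN11. The parent groups were wild-type cells in DMSO, in camptothecin for 2 h and in camptothecin for 4 h, and the knockout groups carried the SLFN11 gene knockout under the same treatments. The knockout is represented by 1 line, so clone and genotype cannot be told apart.

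Camptothecin traps topoisomerase I, the enzyme that relaxes DNA ahead of moving polymerases, on the DNA it has cut. SLFN11 is a nuclear protein that is recruited to stressed replication forks and sensitises cells to such drugs. Gene-poor chromosomes are rich in A and T bases and replicate late over much of their length, and chromosome 18 lies near the edge of the nucleus in lymphoid cells, whereas gene-rich chromosomes such as 17, 19 and 22 lie further inside.

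The lists were placed by the library code in their peak names, matched to the code in the sample titles. That placement disagrees with the sample each list is recorded under in 6 of 6 cases. As recorded, the list coded DMSO is the 4 h library, the list coded 2 h is the DMSO library and the list coded 4 h is the 2 h library, in both genotypes. Lists are named below by code, and the reading under the record is given beside the main directions. Where it is not given, the treatment names are those of the code and the same exchange of names applies. With 1 library in each group no value has a replicate spread, so no test between treatments or genotypes was run and no p-value is given. The intervals are Wilson 95% intervals, which cover counting error only, and neighbouring regions and amplified reads are not independent.

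Over all chromosomes, merged peaks numbered 14205, 23665 and 21617 in the parent lists (DMSO, 2 h and 4 h, an order kept throughout) and 19289, 20894 and 19167 in the knockout lists, and the parent DMSO list was the shortest. Every list ended at a q of 1%. On the chromosomes described, the pileup of reads at a peak's summit, recovered from the deposited fold enrichment and p, had a median of 18, 26 and 29 in the parent lists and of 19, 20.0 and 19 in the knockout lists, and the lowest was 8 in every list. Peaks near the threshold thus rest on few reads. Neither SLFN11 nor any other gene was located, since an hg19 annotation was not used here, and the cell type is as labelled.

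The label of these chromosomes as gene-poor held against a gene table. Counted in the RefSeq table of GRCh38.p14, they carried 4.03 (chromosome 4), 3.52 (chromosome 13) and 3.46 (chromosome 18) protein-coding genes per Mb of the length their regions span, which are ranks 21, 22 and 23 of 23. Chromosome 17 carried 14.4 and chromosome 22 carried 13.2. Open regions were sparse in the same way, at 8.39, 7.98 and 8.12 per Mb on chromosomes 4, 13 and 18, ranks 20, 22 and 21, against 18.2 and 18.1 on chromosomes 17 and 22. The median distance between neighbouring regions was 46.0 kb, against 32.0 kb on the 20 other chromosomes and 24.8 kb on chromosomes 17 and 22, which are among those 20.

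Of the 3001 regions, 1009 (33.6%, 32.0 to 35.3%) were called in all 6 lists and 913 (30.4%, 28.8 to 32.1%) in 1 list alone. On the 20 other chromosomes the shares were 34.7% and 27.0%. These chromosomes were therefore close to the rest of the genome in constant regions and somewhat above it in regions seen once. The next most frequent sets were 105 regions in every list but parent DMSO and 79 in both parent camptothecin lists and nowhere else. They made up 3.50% (6.28% over all regions) and 2.63%. On chromosomes 17 and 22 these sets made up 9.89% and 9.03%.

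Chromosome 18 differed from its companions. Only 171 of its 633 regions (27.0%, 23.7 to 30.6%) were in all 6 lists, the lowest share of the 23 chromosomes, and 207 (32.7%, 29.2 to 36.5%) were in 1 list, the highest share. Chromosome 21, with 6.18 protein-coding genes per Mb, lay inside both intervals, at 27.5% and 31.8%. Chromosome 4 had 36.1% (33.8 to 38.5%) in all 6 lists and chromosome 13 had 33.9% (30.7 to 37.4%). The interval of chromosome 18 did not meet that of chromosome 4 and only just failed to meet that of chromosome 13.

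Regions called in more lists were wider and had higher peaks, in part by construction. Regions called in 1 list had a median width of 185 bp and a median highest fold enrichment of 4.24, where fold enrichment is the peak caller's ratio of the summit to its local background. The medians were 283 bp and 4.99 for regions in 2 lists, 378 bp and 5.69 in 3, 424 bp and 6.12 in 4, 532 bp and 7.0 in 5, and 814 bp and 9.70 in 6. The same order held on the 20 other chromosomes, from 188 bp and 4.22 to 782 bp and 10.1. A region merged from more lists can only be as wide or wider, and the highest fold is a maximum over the lists that hold a region, so part of both orders is built in.

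The number of regions per list differed most within the parent genotype. The parent lists held 1358 (DMSO), 2023 (2 h) and 1680 (4 h) of the 3001 regions, and the knockout lists held 1736, 1898 and 1802. Read by code, the parent number was higher in camptothecin at both times and highest at 2 h, while the knockout lists differed less from each other. As recorded, the parent order is 2023 in DMSO, 1680 at 2 h and 1358 at 4 h, that is fewer with time. Regions seen in 1 list alone followed the same order, with 47, 234 and 141 in the parent lists and 128, 199 and 164 in the knockout lists. In the parent lists these were 1.57%, 7.80% and 4.70%, against 1.23%, 7.69% and 6.14% over all regions. In the knockout lists they were 4.27%, 6.63% and 5.46%, against 3.63%, 4.68% and 3.93% over all regions.

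Chromosome by chromosome, the parent lists held 781, 1083 and 922 regions on chromosome 4, 345, 533 and 443 on chromosome 13, and 232, 407 and 315 on chromosome 18. The knockout lists held 956, 1036 and 1006 on chromosome 4, 452, 474 and 439 on chromosome 13, and 328, 388 and 357 on chromosome 18. The 2 h list was the longest of its genotype on each of these chromosomes. The knockout 4 h list was shorter than the knockout DMSO list on chromosome 13 alone.

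As a share of their list, however, these chromosomes were lower in parent camptothecin cells. They held 9.84% (9.36 to 10.3%) of merged peaks in the parent DMSO list, 8.66% (8.31 to 9.03%) in the 2 h list and 7.89% (7.54 to 8.25%) in the 4 h list. In the knockout lists the shares were 9.26% (8.86 to 9.68%), 9.30% (8.91 to 9.70%) and 9.71% (9.30 to 10.1%). The parent intervals did not meet each other and those of the knockout lists all overlapped. The lower parent shares were not particular to these chromosomes. Chromosome 2 held 8.11%, 7.63% and 7.33% of the parent lists and chromosome 3 held 6.25%, 5.81% and 5.52%. Chromosome 1 went the other way, with 9.45%, 9.88% and 9.97%. Chromosomes 17 and 22 also ran the other way in parent cells, with 5.74%, 7.27% and 7.93%. They held 6.32%, 6.63% and 5.97% in the knockout lists. As recorded, the parent shares of chromosomes 4, 13 and 18 are 8.66% in DMSO, 7.89% at 2 h and 9.84% at 4 h.

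The lower share was carried mostly by chromosome 4. It held 5.64% (5.27 to 6.03%), 4.64% (4.37 to 4.91%) and 4.34% (4.08 to 4.62%) of the parent lists. Chromosome 13 held 2.51%, 2.29% and 2.07%, and chromosome 18 held 1.69%, 1.74% and 1.48%. On chromosome 18 the 3 parent intervals, 1.49 to 1.91%, 1.58 to 1.91% and 1.32 to 1.65%, overlapped. The parent order was the same in lists of equal length. With every list shortened to its 14205 most significant peaks, the shares of all 3 chromosomes were 9.84%, 8.0% and 7.43% in the parent lists and 9.26%, 8.98% and 9.67% in the knockout lists.

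**Figure D1:**
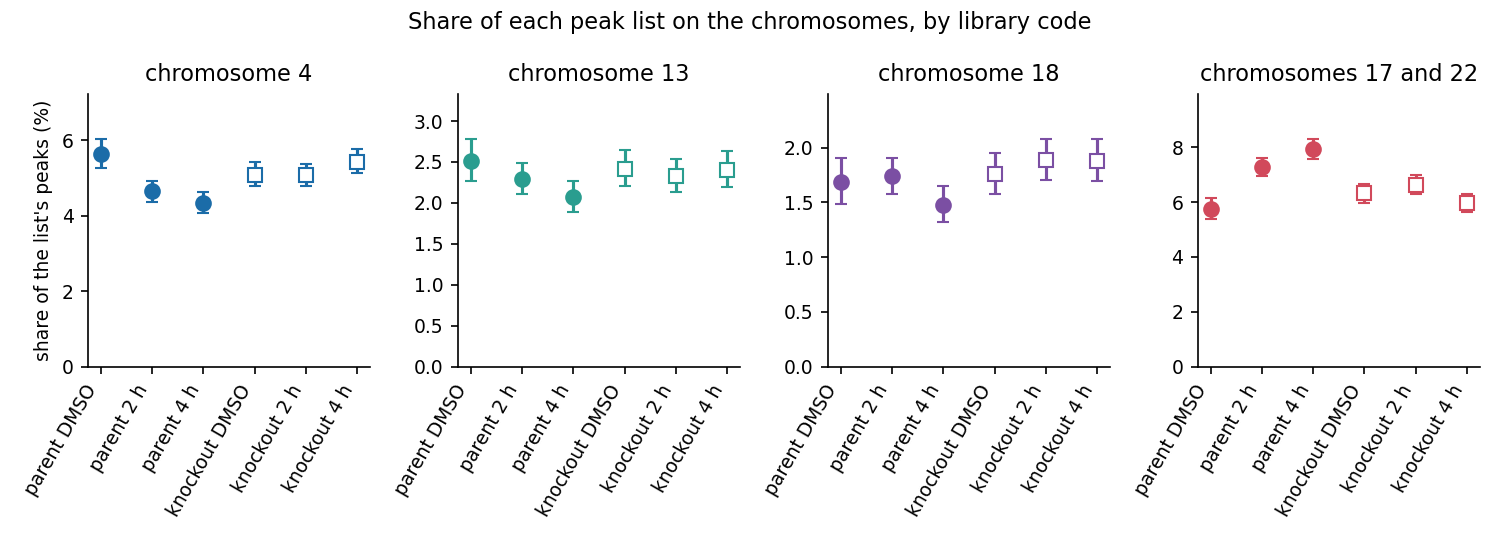
Share of each list's merged peaks (vertical axis, %) on chromosomes 4, 13 and 18 and on chromosomes 17 and 22, by library code, filled circles for parent and open squares for knockout lists; bars are Wilson 95% intervals, 1 library a point. Chromosome 4 is at 5.64% in the parent DMSO list and 4.34% in the parent 4 h list, while chromosomes 17 and 22 are at 5.74% and 7.93%.

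The parent lists were then compared region by region. A region of the DMSO list is called missing when the camptothecin list does not hold it, and a region of the camptothecin list is called added when the DMSO list does not hold it. At 2 h, 149 of 1358 regions were missing (11%, 9.42 to 12.7%; 7.25% over all regions) and 814 of 2023 were added (40.2%, 38.1 to 42.4%; 44.8% over all regions). At 4 h, 232 of 1358 were missing (17.1%, 15.2 to 19.2%; 10.9% over all regions) and 554 of 1680 were added (33.0%, 30.8 to 35.3%; 42.2% over all regions). At both times the missing share was above and the added share below that of all regions, which lay outside the counting intervals. Chromosomes 17 and 22 had 2.36% missing and 53.4% added at 2 h, and 3.48% and 54.4% at 4 h. As recorded, the 2 h list against DMSO lacks 570 of 2023 regions (28.2%; 20.8% over all regions) and adds 227 of 1680 (13.5%; 13.6% over all regions), and the 4 h list against DMSO lacks the 814 and adds the 149, so the direction between treatments turns.

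By code, chromosome 4 stood lowest among the 23 chromosomes in the added share at both times, with 35.7% (32.9 to 38.6%) at 2 h and 29.5% (26.6 to 32.5%) at 4 h. Chromosome 13 had 41.7% (37.5 to 45.9%) and 35.0% (30.7 to 39.5%) and ranked next, 22 of 23, both times. Chromosome 18 did not share this at 2 h, where 50.4% (45.5 to 55.2%) of its regions were added, rank 4. At 4 h it was at 40.3% (35.0 to 45.8%), rank 15. Missing shares were alike on the 3 chromosomes, 10.9%, 9.86% and 12.9% at 2 h and 16.8%, 16.5% and 19% at 4 h, and at 4 h these were ranks 2, 3 and 1. As recorded, the 35.7% of chromosome 4 are DMSO regions missing at 4 h and the 29.5% are 2 h regions that the 4 h list does not hold.

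The missing regions were small. Within the parent DMSO list, the 149 missing at 2 h measured 186 bp at the median with a fold of 4.60, and the 1209 shared ones 414 bp with a fold of 6.12. Of these 149, 47 were in no other list, as were 346 of 857 on the 20 other chromosomes. The 814 added at 2 h measured 249 bp and 4.80 within the 2 h list, against 639 bp and 8.12 for the shared regions. Of the 814, 105 (12.9%) were also in all 3 knockout lists and the parent 4 h list. On the 20 other chromosomes that share was 19.8%. At 4 h the added regions measured 248 bp and 4.78, against 639 bp and 8.25. On chromosomes 17 and 22 the added regions were larger, 312 bp and 5.23 at 2 h and 327 bp and 5.30 at 4 h.

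The smaller added share was seen among peaks of similar height too. Of the regions in the parent 4 h list with a fold between 6 and 10, 111 of 584 (19%, 16.0 to 22.4%) had no counterpart in DMSO, against 43.7% (39.9 to 47.6%) on chromosomes 17 and 22 and 32.6% (31.5 to 33.7%) on the 20 other chromosomes. Between 4 and 6 the shares were 54.9%, 85.4% and 70.7%. From 10 upwards they were 2.49%, 17.8% and 6.64%, so the order was the same in each class. At 2 h the class from 6 to 10 gave 22.2%, 38.9% and 29.0%. As recorded, the regions of the coded 4 h list are those of 2 h, those of the coded 2 h list are DMSO regions, and both lack a counterpart at 4 h.

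Shortening the lists to equal length reversed the balance of missing and added regions on these chromosomes. In such lists the parent 2 h library lacked 28.6% of the DMSO regions and added 14.2%, and the 4 h library lacked 33.0% and added 13.6%. On chromosomes 17 and 22 the equal lists gave 10.6% missing and 33.2% added at 2 h, and 8.94% and 37.8% at 4 h. On the 20 other chromosomes they gave 19.2% and 22.2%, and 21.6% and 25.1%. The excess of added regions here therefore depended on list length, while the order of the chromosome groups did not. As recorded, these comparisons are of DMSO with 4 h and of 2 h with 4 h.

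In SLFN11-knockout cells the missing and added shares lay closer to each other than in parent cells. At 2 h, 316 of 1736 regions were missing (18.2%, 16.5 to 20.1%; 15.8% over all regions) and 478 of 1898 were added (25.2%, 23.3 to 27.2%; 22.3% over all regions). At 4 h, 371 of 1736 were missing (21.4%, 19.5 to 23.4%; 20.5% over all regions) and 437 of 1802 were added (24.3%, 22.3 to 26.3%; 19.7% over all regions). The missing share was above that of all regions at 2 h and within counting error of it at 4 h. The added share was above that of all regions at both times, where in the parent comparison by code it was below. As recorded, the parent added share is not below, with 13.5% against 13.6% over all regions at 2 h and 11% against 7.25% at 4 h. Chromosomes 17 and 22 had 21.6% added at 2 h and 15.2% at 4 h. In lists of equal length the knockout 2 h list lacked 18.7% and added 16.2%, which is below the 17.4% of the 20 other chromosomes. With the −log10 q limit raised to 5 it added 19.1%, against 20.8% over all regions. The added share at 2 h was thus not above under either setting. At 4 h the equal knockout list lacked 18.1% and added 21.5%, against 18.8% added on the others. With the raised q limit the 4 h list added 19.7%, against 17.4% over all regions. Whether the genotypes differ was not tested, with 1 library in each group. As recorded, the knockout 2 h list lacks 450 of 1898 DMSO regions (23.7%; 23.1% over all regions) and adds 354 of 1802 (19.6%; 15.9% over all regions), and the 4 h list lacks the 478 and adds the 316.

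By code, chromosome 18 led the added regions in knockout cells. It ranked 1 of 23 at both times, with 31.7% (27.3 to 36.5%) at 2 h and 30.8% (26.2 to 35.8%) at 4 h. As recorded, the first are DMSO regions missing at 4 h and the second are 2 h regions that the 4 h list does not hold. Chromosome 4 had 23.1% at both times and chromosome 13 had 24.5% and 21.6%. Chromosome 21 was near chromosome 18 at 2 h, with 30.7%, and had 24.7% at 4 h. Added regions were again small, with a median of 202 bp and a fold of 4.39 at 2 h and of 197 bp and 4.53 at 4 h. Each knockout camptothecin list held 119 regions with a fold of 10 or more, of which 0 at 2 h (0 to 3.13%) and 3 at 4 h (2.52%, 0.861 to 7.15%) had no counterpart in knockout DMSO. On the 20 other chromosomes these shares were 0.859% and 1.25%, inside both intervals.

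Knockout and parent lists of the same treatment were compared next. In DMSO the knockout list lacked 176 of 1358 parent regions (13%, 11.3 to 14.9%; 10.6% over all regions) and added 554 of 1736 (31.9%, 29.8 to 34.1%; 34.2% over all regions). At 2 h it lacked 532 of 2023 (26.3%, 24.4 to 28.3%; 25.9% over all regions) and added 407 of 1898 (21.4%, 19.7 to 23.3%; 15.4% over all regions). At 4 h it lacked 390 of 1680 (23.2%, 21.3 to 25.3%; 29.6% over all regions) and added 512 of 1802 (28.4%, 26.4 to 30.5%; 19.3% over all regions). In lists of equal length the knockout DMSO list lacked 22.3% and added 18.5% (19.6% and 20.6% over all regions). The 2 h list lacked 14% and added 22.7% (17.3% and 16.9% over all regions). At both the balance of missing and added regions thus turned with list length. As recorded, these comparisons are those of 4 h, DMSO and 2 h, in this order.

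Of the genotype comparisons, that at 4 h set these chromosomes furthest from the rest. The knockout held more regions than the parent, a log2 ratio of 0.10, while over the 20 other chromosomes the ratio was -0.22 and on chromosomes 17 and 22 it was -0.61. By chromosome the ratios were 0.13 on chromosome 4, -0.01 on chromosome 13 and 0.18 on chromosome 18. Chromosome 13 was thus not set apart from chromosomes 3, 5 and 8, at -0.02, -0.01 and 0.00. On chromosomes 17 and 22 the knockout lacked 38.9% of parent regions and added 6.64%. In lists of equal length the knockout 4 h list lacked 13.9% of the parent regions on chromosomes 4, 13 and 18 and added 32.9%, against 34.4% and 9.06% on chromosomes 17 and 22.

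**Figure D2:**
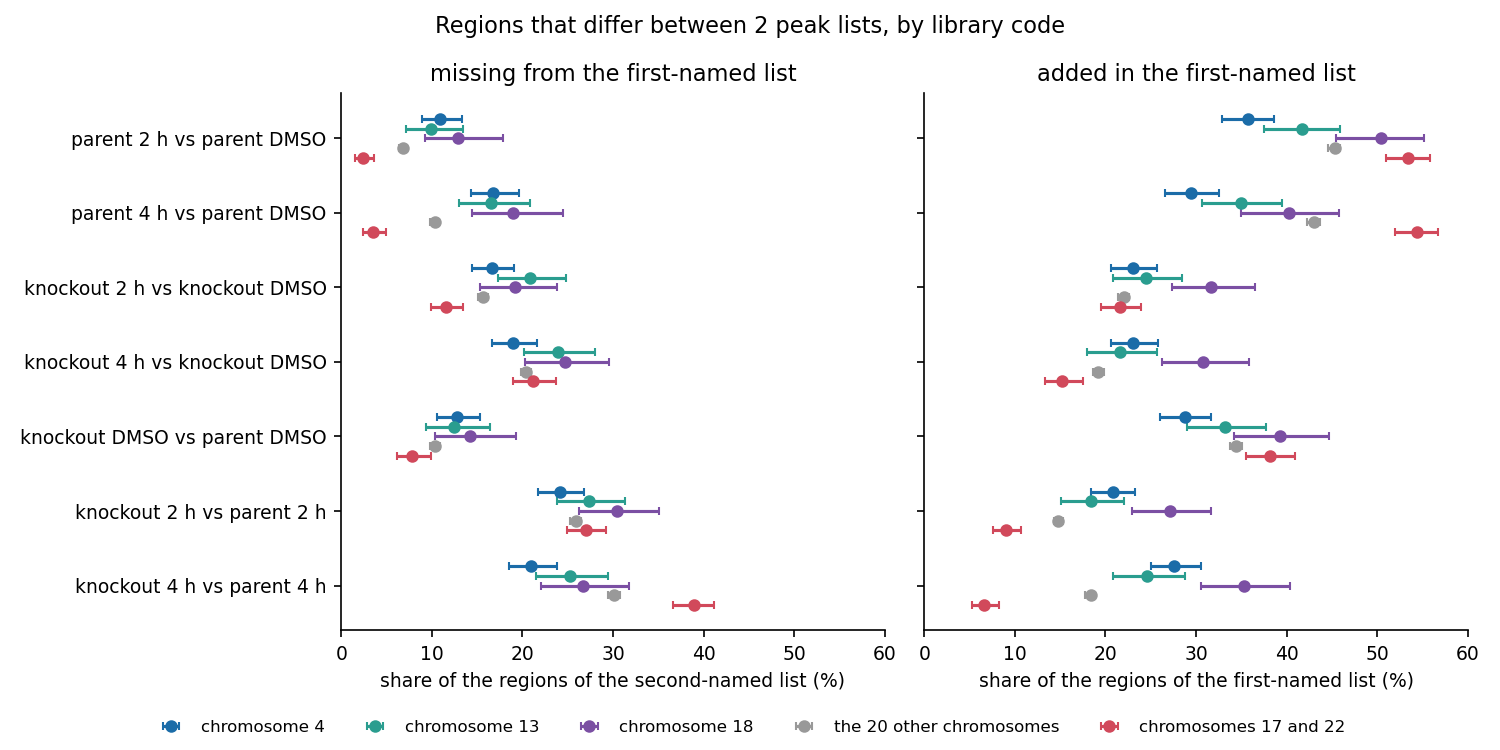
Shares of regions missing (left) and added (right) between pairs of lists (horizontal axes, %), by library code, for chromosomes 4, 13 and 18 separately, the 20 other chromosomes and, among those, chromosomes 17 and 22; bars are Wilson 95% intervals. In the parent rows chromosome 4 lies lowest in added regions, at 35.7% and 29.5%, and in the knockout rows chromosome 18 lies highest, at 31.7% and 30.8%.

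Across all 23 chromosomes some of these measures went along with gene density, which is given as a description of these libraries. Spearman's rho with protein-coding genes per Mb was 0.88 for the log2 ratio of regions between the parent 4 h and DMSO lists, 0.78 for the added share and -0.90 for the missing share. For the parent 2 h list the added share gave 0.44 and the missing share -0.79. For the knockout 4 h list against DMSO the added share gave -0.82 and the log2 ratio -0.61. Other measures showed little relation, such as the log2 ratio of the knockout 2 h list to DMSO (0.10), the missing share of the knockout 4 h list (-0.24) and the regions added in knockout against parent DMSO (0.08). As recorded, the comparisons of the coded 4 h and DMSO lists are those of 2 h with 4 h. The recorded 2 h list against DMSO gives a rho for the log2 ratio of 0.94 in parent and -0.58 in knockout cells. The coded parent 2 h list over DMSO gave 0.63, and this is DMSO over 4 h as recorded. The chromosomes share the same libraries, depth and threshold and differ in base composition, which was not measured here. Pearson's r for the coded parent 4 h ratio was 0.75.

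**Figure D3:**
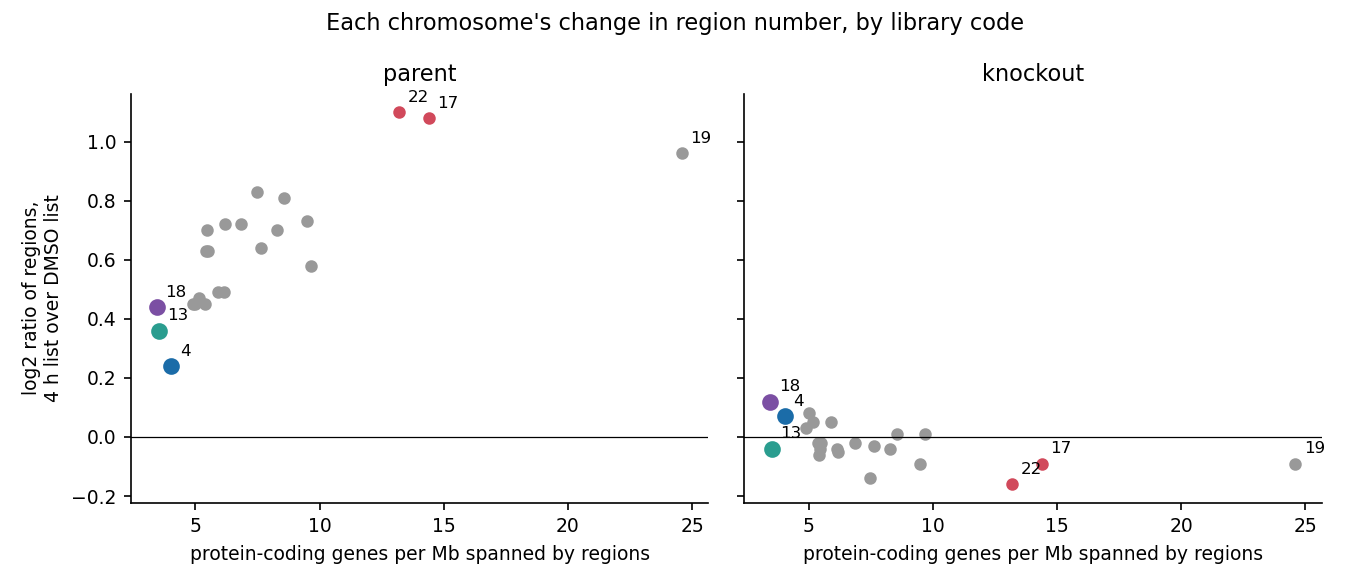
Log2 ratio of the number of regions, 4 h list over DMSO list by code (vertical axis), against protein-coding genes per Mb spanned by regions (horizontal axis) for 23 chromosomes, parent left and knockout right; as recorded the ratio is that of 2 h over 4 h. Chromosomes 4, 13 and 18 (blue, green, purple) lie at 0.24, 0.36 and 0.44 in the parent panel, below chromosomes 17 and 22 (red) at 1.08 and 1.10, and at 0.07, -0.04 and 0.12 in the knockout panel.

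Along the chromosomes, regions were counted in bins of 5 Mb. Of 79 bins, 76 held at least 1 region, with a median of 41.5 and a range of 2 to 116. The 3 empty bins lay at the start of chromosome 13, whose first region began after 19 Mb, since that chromosome's short arm is not in the assembly. The longest stretch without a region between others was chr13:53726202-59500901, which is 5.77 Mb. The longest on chromosomes 4 (chr4:49660056-52663832, 3.00 Mb) and 18 (chr18:15408037-18511062, 3.10 Mb) lie at their centromeres, which are gaps in the assembly.

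By code, the parent 2 h list exceeded the DMSO list in most bins and the 4 h list in fewer. The 2 h list held more regions than the DMSO list in 66 bins, fewer in 6 and as many in 4. For the 4 h list the numbers were 48, 20 and 8. In the knockout lists 48 bins held more regions at 2 h and 15 fewer, and 44 held more at 4 h and 21 fewer. On chromosome 18 all 16 bins held more regions in the parent 2 h list. As recorded, the parent 2 h list holds fewer regions than DMSO in 65 bins and the 4 h list fewer in 66.

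**Figure D4:**
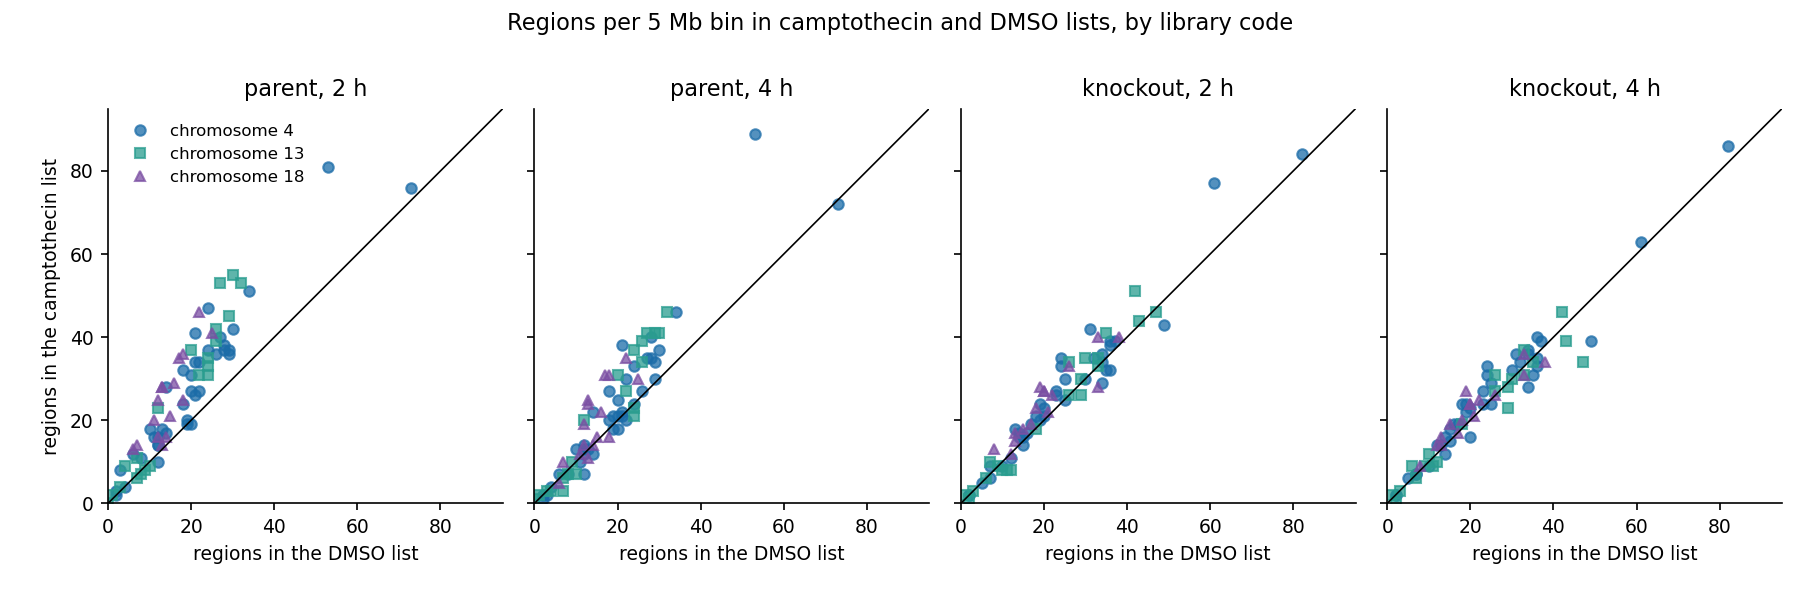
Number of regions in each occupied 5 Mb bin of chromosomes 4, 13 and 18, camptothecin list (vertical axis) against the DMSO list of the same genotype (horizontal axis), by code; the line marks equal numbers. In parent cells 66 of 76 bins lie above the line at 2 h and 48 at 4 h.

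Bins that are dense and bins that are sparse behaved differently in the parent 4 h list. Bins were classed by their mean number of regions in the lists of the other genotype, with limits chosen after the values were seen. In the 21 bins with a mean under 15, the parent lists held 134, 181 and 125 regions in DMSO, at 2 h and at 4 h, a log2 ratio to DMSO of 0.43 at 2 h and -0.10 at 4 h. In the 28 bins from 15 to 30 they held 462, 675 and 540 (0.55 and 0.23). In the 27 bins from 30 up they held 762, 1167 and 1015 (0.61 and 0.41), and 26 of these 27 had more regions at 4 h than in DMSO. Within chromosomes 4, 13 and 18 the denser stretches thus had the larger parent 4 h ratio. The knockout ratios, with bins classed by the parent lists, lay between -0.01 and 0.18. As recorded, the parent numbers are those of 4 h, DMSO and 2 h, in this order.

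The densest bin was the first 5 Mb of chromosome 4, with 116 regions, of which 44 were in all 6 lists. Its parent lists held 53, 81 and 89 regions and its knockout lists 61, 77 and 63. It was a place where the parent list coded 4 h, which is recorded as 2 h, was the longest of all. The densest bins of chromosome 13 lay at 110 to 115 Mb (82 regions; 30, 55 and 41 in the parent lists, 47, 46 and 34 in the knockout lists) and at 45 to 50 Mb (75 regions; 32, 53 and 46, then 42, 51 and 46). On chromosome 18 the bin at 10 to 15 Mb held 68 regions, 22, 46 and 35 in the parent and 38, 40 and 34 in the knockout lists, and the first 5 Mb held 61.

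The other dense bin of chromosome 4, at 45 to 50 Mb, was of a different kind. It held 114 regions, and its lists were nearly equal, with 73, 76 and 72 in the parent and 82, 84 and 86 in the knockout. Most of them lay in the last Mb before the centromere, chr4:49034697-49660055, where 83 regions were packed and 43 of them were in all 6 lists. Median fold there was low, between 3.47 and 3.75 in the 6 lists. Centromere borders hold repeated sequence, and no filter for poorly mapped sequence was applied here. Without this Mb, chosen after the values were seen, chromosome 4 had 36.9% added at 2 h and 30.5% at 4 h in parent cells and 35.2% of its regions in all 6 lists.

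The sparsest occupied bins were at 55 to 60 Mb of chromosome 13, with 2 regions, and at 30 to 35 Mb of chromosome 4 and 15 to 20 Mb of chromosome 13, with 3 each. The bin at 60 to 65 Mb of chromosome 4 held 4. Chromosome 18 had no bin under 21 regions.

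Peaks themselves were wider in the parent camptothecin lists. The median width on these chromosomes was 364 bp (DMSO), 435 bp (2 h) and 465 bp (4 h) in the parent lists and 368, 358 and 349 bp in the knockout lists. The median fold, which each list gives over its own background, was 5.85, 6.28 and 6.58 in the parent and 5.73, 5.56 and 5.64 in the knockout. Peaks of at least 1000 bp made up 2.36%, 8.88% and 8.62% of the parent peaks and 3.13%, 3.76% and 2.26% of the knockout peaks. Those of at most 170 bp made up 10.9%, 11.5% and 10.3%, and 12.5%, 13.2% and 14.4%.

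The width difference was also seen in the 1009 regions called in every list, where the same places are compared. Their median covered width was 465, 687 and 683 bp in the parent lists and 551, 569 and 526 bp in the knockout lists, and median fold was 6.39, 8.70 and 8.65, and 7.02, 7.23 and 6.97. The parent DMSO list gave the narrowest peak in 433 of the 1009 (42.9%), and the parent 2 h list gave the widest in 413 (40.9%). The median width was as large at 4 h as at 2 h. On the 20 other chromosomes it was nearly level too, at 410, 681 and 689 bp in the parent lists. On chromosomes 17 and 22 it was 386, 677 and 714 bp. The parent 4 h list gave the widest peak in 28.1% of regions here and in 42.0% on the 20 others. On chromosomes 17 and 22 that share was 58.2%. As recorded, the widths in parent cells read 687 bp in DMSO, 683 bp at 2 h and 465 bp at 4 h. Summit pileup, given above, was also higher in the parent lists coded 2 h and 4 h, and its part in the widths was not tested.

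**Figure D5:**
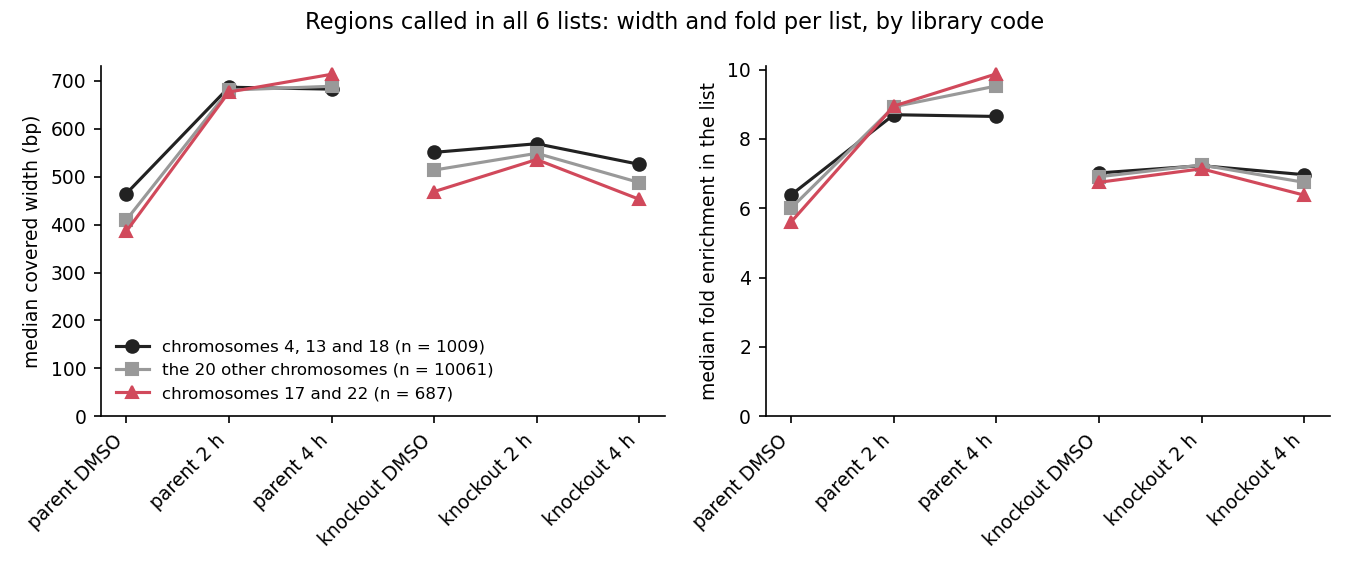
Median covered width (left, bp) and median fold enrichment (right) per list, by code, in regions called in all 6 lists, for chromosomes 4, 13 and 18 (1009 regions), the 20 other chromosomes (10061) and, among those, chromosomes 17 and 22 (687). The parent 2 h and 4 h points of chromosomes 4, 13 and 18 are level, at 687 and 683 bp and at folds of 8.70 and 8.65, and its parent DMSO point is at 465 bp.

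Summits lay close together. In the 213 shared regions with a single summit in each list, the summits of the 6 lists lay within a median of 78.0 bp of each other, against 82.0 bp in 2106 such regions of the 20 other chromosomes. Over all 1009 shared regions, taking each list's summit of highest fold, the median range was wider, 120 bp. On the 20 other chromosomes it was 127 bp.

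Among regions of all 6 lists, the highest lowest fold on chromosome 4 was at its far end, chr4:191043617-191044253, with a fold of 20.3, 24.0 and 24.4 in the parent lists and 25.3, 25.9 and 26.0 in the knockout lists. On chromosome 18 it was at the near end, chr18:10025-10612, with 17, 15.4 and 16.4, then 14.1, 16.8 and 15.3. Both thus lie next to telomeres. Folds of different lists are set side by side as descriptions only. On chromosome 13 it was chr13:110076474-110076687, with 42.5, 41.5 and 40.5 in the parent and 42.0, 42.0 and 44.4 in the knockout lists, the highest of all these regions. No filter for poorly mapped sequence was applied, and whether this region lies in such sequence was not tested. It was 213 or 214 bp wide in every list.

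Such constant edges were rare. Regions whose widest peak exceeded the narrowest by at most 5% (this limit was set with the widths in view) numbered 6 of 1009 (0.595%, 0.273 to 1.29%), against 0.795% on the 20 other chromosomes, and the median ratio was 1.86. Besides the region on chromosome 13 they were chr4:49128639-49129122 and chr4:49515483-49516184, both in the packed Mb beside the centromere (folds 3.24 to 3.8 and 4.02 to 5.27), chr4:68265198-68266658 (1423 to 1457 bp, fold 18.7 to 20.9), chr18:107833-109544 (1681 to 1699 bp, fold 7.68 to 8.47) and chr18:18518365-18520336 (1949 to 1972 bp, fold 9.42 to 10.0). The last begins just past the centromere gap.

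Among the widest regions of all 6 lists, the list with the widest peak varied. At chr4:145566890-145568866 the covered width was 945, 1977 and 1737 bp in the parent lists and 931, 1052 and 1150 bp in the knockout lists. At chr4:140097760-140099713 it was 1212, 1954 and 1705 bp, then 1578, 1579 and 1581 bp. At chr13:91999363-92001600 it was 1264, 1927 and 1771 bp, then 1344, 1712 and 1458 bp. In each of these the parent 2 h list was the widest. At chr13:20531575-20533496, with 940, 1602 and 1750 bp, then 986, 1163 and 1158 bp, it was the parent 4 h list. At chr4:174089430-174091402 the widths were 917, 1755 and 1856 bp, then 1958, 1761 and 1731 bp, where the knockout DMSO list was the widest. At chr18:25756778-25758429, with 952, 1446 and 1355 bp, then 1272, 1590 and 1512 bp, it was the knockout 2 h list.

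Regions held by every list but parent DMSO made up a smaller share here than over all regions. There were 105 of 3001 (3.50%, 2.9 to 4.22%; 6.28% over all regions), against 9.89% on chromosomes 17 and 22. Chromosome 4 had the lowest share of the 23 chromosomes, 2.93%, followed by chromosome 13 with 3.66%. Chromosome 18 had 4.74%, rank 20, just above chromosome 2 with 4.68%. The same count was 14 and 43 for the parent 2 h and 4 h lists (0.467% and 1.43%; 0.194% and 0.971% over all regions). For the knockout lists it was 22, 8 and 23 (0.733%, 0.267% and 0.766%; 0.771%, 0.353% and 1.12% over all regions). Of the 105 regions, chr4:70296610-70296754 had the highest lowest fold, at 27.2 and 31.6 in the parent 2 h and 4 h lists. It had 23.3, 27.2 and 21.6 in the knockout lists, but was at most 145 bp wide. No filter for poorly mapped sequence was applied to it.

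Wider ones included chr4:141746753-141747477, at 9.0 and 8.77 in the parent camptothecin lists and 7.67, 9.72 and 8.40 in the knockout lists. On chromosome 13, chr13:28033712-28034147 had 10.6 and 12.9, then 10.7, 6.56 and 7.94, and chr13:79232889-79233364 had 8.14 and 9.63, then 6.37, 5.98 and 6.56. On chromosome 18, chr18:44676448-44677264 had 10.7 and 7.81, then 6.87, 7.05 and 6.42, and chr18:55253725-55254180 had 10.6 and 10.5, then 6.20, 7.73 and 6.66. These 5 were 436 to 817 bp wide. As recorded, all of these are absent at 4 h of camptothecin in parent cells.

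Regions of 1 genotype alone do not depend on the placement of the lists. There were 7 parent-only regions, in all 3 parent lists and no knockout list (0.233%, 0.113 to 0.481%; 0.309% over all regions), and 28 knockout-only regions (0.933%, 0.646 to 1.35%; 0.715% over all regions). Both shares were within counting error of the genome's. Without the parent DMSO list, 86 regions were parent-only and 43 knockout-only. Leaving a list out can only raise such counts. Parent-only regions then had to be in only 2 lists, and knockout-only regions still in 3. The 2 numbers are therefore not like for like, and no conclusion is drawn from their order.

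The parent-only regions were low to moderate in fold. On chromosome 4 they were chr4:1261442-1261976 (6.27, 4.98 and 6.80 in DMSO, at 2 h and at 4 h), chr4:140656054-140656286 (4.29, 6.50 and 4.78) and chr4:40240411-40240725 (4.16, 4.75 and 4.94). On chromosome 13 they were chr13:113228184-113228746 (4.29, 7.88 and 9.87) and chr13:96130756-96131192 (3.81, 7.65 and 7.69). On chromosome 18 they were chr18:71863499-71863841 (4.90, 5.16 and 6.88) and chr18:63404925-63405221 (5.85, 4.37 and 4.87). Fold did not pass 10 in any list.

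Knockout-only regions numbered 17 on chromosome 4, 6 on chromosome 13 and 5 on chromosome 18. The highest by lowest fold were chr13:102783639-102783886 (7.53, 6.46 and 9.93 in DMSO, at 2 h and at 4 h), chr4:139248545-139248764 (5.73, 5.91 and 6.51), chr18:19812100-19812593 (5.39, 5.49 and 6.82) and chr4:3816618-3816849 (7.01, 5.23 and 8.48). The 28 knockout-only regions measured 371 bp at the median and the 7 parent-only regions 343 bp.

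The regions of 1 list alone included a few high ones. The highest on chromosome 4 was chr4:56194327-56194462, with a fold of 13.6 in the knockout 4 h list and a width of 136 bp. On chromosome 13 it was chr13:50900563-50900997, at 8.30 in the parent 2 h list and 435 bp wide, and on chromosome 18 chr18:30499891-30500071, at 8.24 in the knockout 4 h list and 181 bp wide. The median highest fold of regions in 1 list was 4.24, as given above. Whether narrow, high peaks such as that of 136 bp lie in poorly mapped sequence was not tested, and no filter for it was applied.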

How the data were processed

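The deposited narrowPeak lists were made by the authors, 1 for each library. Per the submitters' processing notes, MACS2 2.1.2 is among the tools named, with BWA 0.7.17 and hg19, and Picard 2.9.2, Trimmomatic 0.39, SAMtools 1.8 and Trim Galore 0.6.2, with no role stated. Read shifting, extension and duplicate handling, which can move peak edges and numbers, are not stated in these sources. The deposited fold is a ratio of summit to local background, the deposited −log10 p and q come from the same caller, and the deposited score restates the q.

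Mitochondrial and chromosome Y entries (0.445 to 0.728% of a list) were left out. Entries overlapping by at least 1 bp were merged with Python 3.11.15, NumPy 2.4.6, pandas 2.3.3 and SciPy 1.17.1, and figures drawn with Matplotlib 3.10.9. Fold was used to describe and rank peaks. Fold and p fix the summit pileup under a Poisson model, recovered for 100% of entries within 0.0200 in −log10 p. Merging and recovery were tested on simulated data. Named regions, chosen per chromosome, were from regions of all 6 lists the 3 widest and the 3 with the highest lowest fold, from those lacking only parent DMSO and from each genotype-only set the 3 with the highest lowest fold, and the highest of 1 list. The text gives some or all of each set. The chromosomes, lists and rules were chosen with earlier results of these data known. Planned gene lists needed an hg19 annotation and were not used here. The alternatives raised the −log10 q limit to 5, or consisted of leaving out entries of at most 170 bp, merging within 100 bp, an overlap of 50%, equal lists, the recorded placement, other bins, entries as deposited, regions of all 6 lists and leaving out each list.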

Additional observations from a re-analysis of the deposited data

Results flagged for a closer look

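The share of each list on chromosomes 4, 13 and 18 differed from DMSO in opposite directions in the 2 genotypes when lists are read by code. The knockout differences were within counting error. Relative to DMSO it was different by -1.18 percentage points at 2 h and -1.95 at 4 h in parent cells, and by 0.03 and 0.45 in SLFN11-knockout cells. The difference between genotypes was not tested, because each group is 1 library, and the knockout value at 2 h is far inside its counting interval. At 4 h the knockout interval, 9.30 to 10.1%, overlapped that of knockout DMSO, 8.86 to 9.68%. At 2 h the opposite direction did not hold under other settings. In lists of equal length the knockout share was 9.26% in DMSO and 8.98% at 2 h, and with a −log10 q of at least 5 it was 9.28% and 8.92%, so that both genotypes were then below DMSO. As recorded, the parent values are -0.78 and 1.18 and the knockout values 0.41 and -0.03, so under the record the sign changes between times within each genotype.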

How the results depend on the processing

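No paired analysis was possible because each group is 1 library and its replicate number is only a name. The number of regions and the regions per bin stayed within 1.5 times, or within the spread of bins, under each alternative run, and so did each count of missing and added regions with an overlap of 50%, without entries of at most 170 bp, and without the Mb beside the chromosome 4 centromere (added after seeing the data).

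With a −log10 q of at least 5 there were 2072 regions here instead of 3001, so counts fell with the lists. Missing regions numbered 93 (parent 2 h), 146 (parent 4 h) and 202 (knockout 2 h against DMSO). These were 9.31%, 14.6% and 15.7%, against 5.26%, 8.43% and 14.2% over all regions. Added regions numbered 257 and 251 (knockout 2 h and 4 h), 19.1% and 19.7%, against 20.8% and 17.4% over all regions. Against the parent, 184 were added at 2 h and 276 at 4 h. These were 13.7% and 21.6%, against 10.4% and 14.1% over all regions. Parent-only regions numbered 4. With lists of equal length, missing and added regions numbered 389 and 161 (parent 2 h), 448 and 143 (parent 4 h) and 303 and 240 (knockout against parent DMSO). Those added in the knockout at 2 h were 204, and at 4 h 235 were missing and 290 added. From the knockout 158 and 147 parent regions were missing at 2 h and 4 h. The shares that these counts make up are given above. The parent lists then held 8.0% and 7.43% of their peaks on these chromosomes at 2 h and 4 h. Under the recorded placement, missing and added regions were 570 and 227 (parent 2 h), 814 and 149 (parent 4 h), and 532 (DMSO) and 176 (4 h) were missing from the knockout. Leaving out each list in turn gave 10 to 86 parent-only and 40 to 74 knockout-only regions.

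Entries as deposited, where a wide region counts once per summit, had median widths of 453, 584 and 606 bp (parent) and 463, 468 and 445 bp (knockout), and median folds of 5.52, 5.71 and 5.83, and 5.43, 5.30 and 5.46. Regions of all 6 lists had widths of 465, 687 and 683 bp, and 551, 569 and 526 bp, and folds of 6.39, 8.70 and 8.65, and 7.02, 7.23 and 6.97. The order of the parent lists by code, DMSO lowest, held in both except that 2 h exceeded 4 h by a little in regions of all 6 lists. The cause of these shifts was not tested. Depth limits the presence of peaks near the threshold.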
